A study of Mus musculus with 10 samples.

Results

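ERα binding was examined at 10 genes through which metabolic and pituitary hormones act on the hypothalamus: the receptors Lepr, Ghr, Prlr, Insr, Igf1r, Oxtr, Avpr1a and Ghsr, the growth factor Igf1 and the adaptor Irs1. Every ChIP-seq peak lying in the body of one of these genes or within 100 kb of any of its RefSeq start sites was taken, without regard to its strength. The genes are 10 of 26180 with a curated RefSeq transcript, and their windows held 12 of the 8072 regions obtained by merging peaks that shared at least 1 bp over 8 libraries. The 12 regions lay at 6 of the genes, and none lay in the window of Lepr, Insr, Igf1 or Ghr.

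The libraries were made by chromatin immunoprecipitation with an antibody to ERα, the nuclear receptor for estradiol, in which bound DNA is recovered and sequenced and positions with an excess of reads are called as peaks. The arcuate nucleus gave 4 libraries, as did the anteroventral periventricular nucleus (AVPV), both in the hypothalamus of female C57BL/6 mice, typically of 8 to 12 weeks. The paper applies the name AVPV more widely, to a rostral area beside the third ventricle that also holds the periventricular nucleus. The tissue labels, the title of the series and the paper name the hypothalamus, and the sample titles name these 2 nuclei. The design text alone names what appears to be the hippocampus, and the labels were followed. The peak lists themselves cannot check the tissue. All libraries came from mice with the same treatment, which was removal of the ovaries, a 2 cm subcutaneous implant of estradiol at 0.1 mg/mL, a single dose of estradiol benzoate at 0.05 mg/kg after a week, and collection of tissue 28 h later. The chromatin was pooled before immunoprecipitation. No vehicle-treated library was made, so the values compare 2 nuclei under estrogen and say nothing of binding without it. Whether each library had a pool of animals of its own is not stated, so the p-values measure the spread between libraries, which may be technical. A nucleus holds many cell types, and weaker binding in every cell and binding in fewer cells cannot be told apart here. Peak lists hold no expression values, so neither the dissection nor the activity of the genes was checked against marker genes.

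Leptin, growth hormone and prolactin signal through receptors of the cytokine class, which lack a kinase of their own and work through JAK2 and STAT proteins. Insulin and IGF1 signal through receptor tyrosine kinases that phosphorylate adaptors such as IRS1, and oxytocin, vasopressin and ghrelin act on receptors coupled to G proteins. In the hypothalamus these receptors bring information on energy stores, growth, lactation and social state to the neurons that also sense estrogen.

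The lists held from 3251 to 4079 arcuate peaks and from 2367 to 3347 AVPV peaks. Arcuate library 4 stood apart, sharing on average 0.405 of its regions with another arcuate library (shared regions over the regions of either), against 0.483 to 0.499 for the other arcuate libraries and 0.504 to 0.545 in the AVPV. It held peaks in 4 of the 12 regions, and AVPV library 4 held 7, the most among the AVPV libraries. For some of the differences between nuclei described below, the values without these libraries are given. Where such a value is not given, the difference may still have moved. A nucleus was said to have a site where 2 or more of its 4 libraries held a peak. The strength of a peak is given as the percentile of its fold enrichment over background within its own list, where values near 100 are the strongest peaks of that library. Each list has its own background and no read counts were analysed here, so an uncalled peak is not evidence that the DNA was unbound.

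The sequences under 4 of the regions are shown, each as the 201 bp around the median summit on the plus strand of mm10 (RefSeq GRCm38.p6). The comparisons of the nuclei did not use them. A response element was counted where the hexamer AGGTCA and its reverse complement TGACCT, spaced by 3 free bases, matched on either strand with at most 2 mismatches among the 12 fixed bases. This palindrome reads the same on both strands, so a match and its counterpart on the other strand were counted once. Capitals mark the response element under the Igf1r region and the hexamer CCGGAA, the core bound by ETS factors, under the Irs1 region. The Prlr and Oxtr windows held neither and have no capitals.
Igf1r intron 2, chr7:68041493-68041693: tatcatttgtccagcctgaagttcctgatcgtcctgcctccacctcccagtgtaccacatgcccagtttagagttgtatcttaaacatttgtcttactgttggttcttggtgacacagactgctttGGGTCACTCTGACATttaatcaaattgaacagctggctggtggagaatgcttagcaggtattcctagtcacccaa
Prlr upstream, chr15:10134831-10135031: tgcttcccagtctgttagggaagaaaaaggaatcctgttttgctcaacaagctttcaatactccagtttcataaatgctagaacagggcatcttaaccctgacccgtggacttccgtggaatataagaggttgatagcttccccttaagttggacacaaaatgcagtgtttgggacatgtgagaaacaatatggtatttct
Oxtr upstream, chr6:112516750-112516950: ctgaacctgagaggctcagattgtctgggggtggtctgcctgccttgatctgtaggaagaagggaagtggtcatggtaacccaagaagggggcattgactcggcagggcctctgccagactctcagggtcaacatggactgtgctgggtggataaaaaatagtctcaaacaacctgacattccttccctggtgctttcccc
Irs1 upstream, Rhbdd1 promoter, chr1:82316472-82316672: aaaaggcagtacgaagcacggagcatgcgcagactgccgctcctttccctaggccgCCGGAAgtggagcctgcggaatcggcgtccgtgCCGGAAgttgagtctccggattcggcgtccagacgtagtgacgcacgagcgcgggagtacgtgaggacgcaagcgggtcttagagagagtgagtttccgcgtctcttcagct

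At least 1 region was present at 6 of the 10 genes, and 56.3% of all genes had one. A site in the arcuate was present at 5 genes (Igf1r, Prlr, Oxtr, Ghsr and Irs1), against 36.7% of all genes, and a site in the AVPV at 3 (Igf1r, Prlr and Irs1), against 31.9%. The genes averaged 1.2 regions each, close to the 1.17 over all genes, and their windows, with a median of 202 kb, were about as long as the 200 kb of the others. Of the 12 regions, 7 were called in the arcuate (background 45.3% of all regions) and 4 in the AVPV (background 35.5%). Of the 8 sites, 4 were called in the arcuate alone (Prlr 79.9 kb downstream, Oxtr and both at Ghsr), 1 in the AVPV alone (Igf1r 246 kb downstream) and 3 in both (Igf1r, Prlr and Irs1). Over all sites these states took 34.6%, 16.6% and 48.8%. None of the 12 was complete in one nucleus (peaks in 4 of 4 libraries) and absent from the other, the pattern that alone reached an unadjusted p under 0.05 in Fisher's exact test and that 2.95% of all regions showed. No region was found in all 8 libraries, as 13.5% of all regions were. Peaks in 7 libraries were found at 3 of the 12 (25%) and at 4.48% of all regions.

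**Figure D1:**
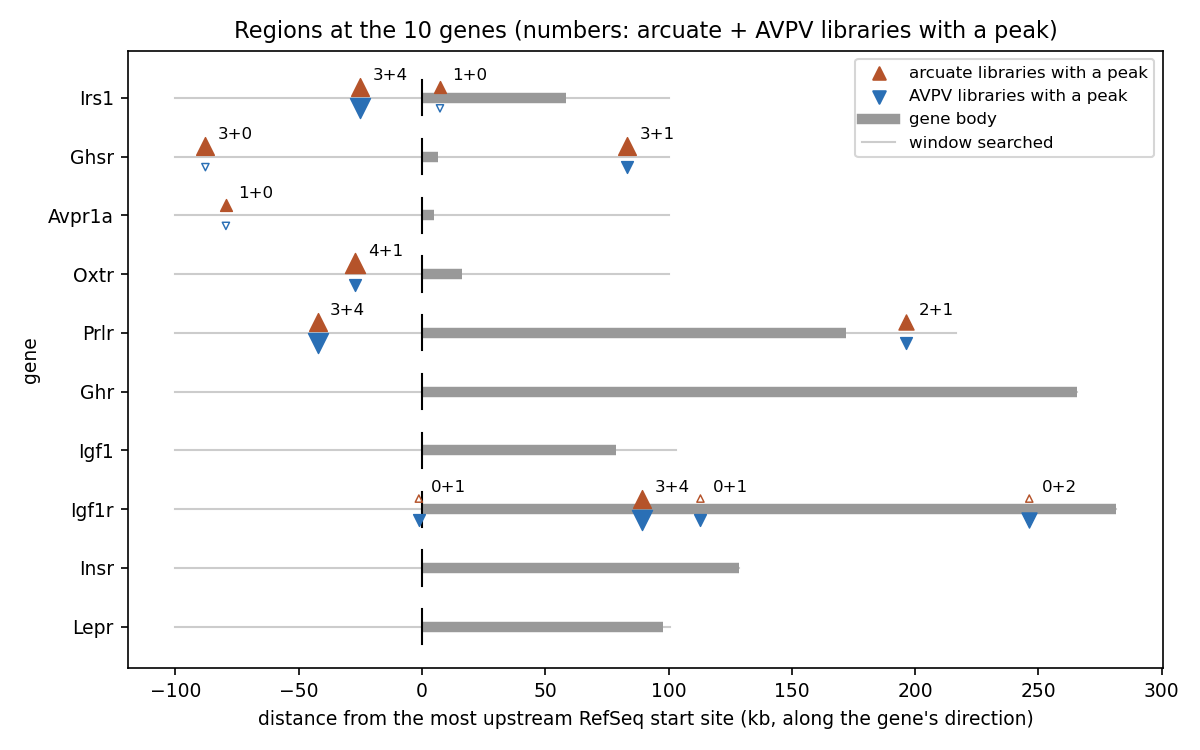
Position of the 12 regions (horizontal axis, kb from the most upstream RefSeq start site along the direction of each gene) at the 10 genes (vertical axis), with triangles sized by the number of arcuate (up) or AVPV (down) libraries with a peak and open where there was none. Igf1r had 4 regions, and Lepr, Insr, Igf1 and Ghr had none. The downstream Prlr region lies 79.9 kb from the nearest Prlr start site, which is not the one at 0.

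**Figure D2:**
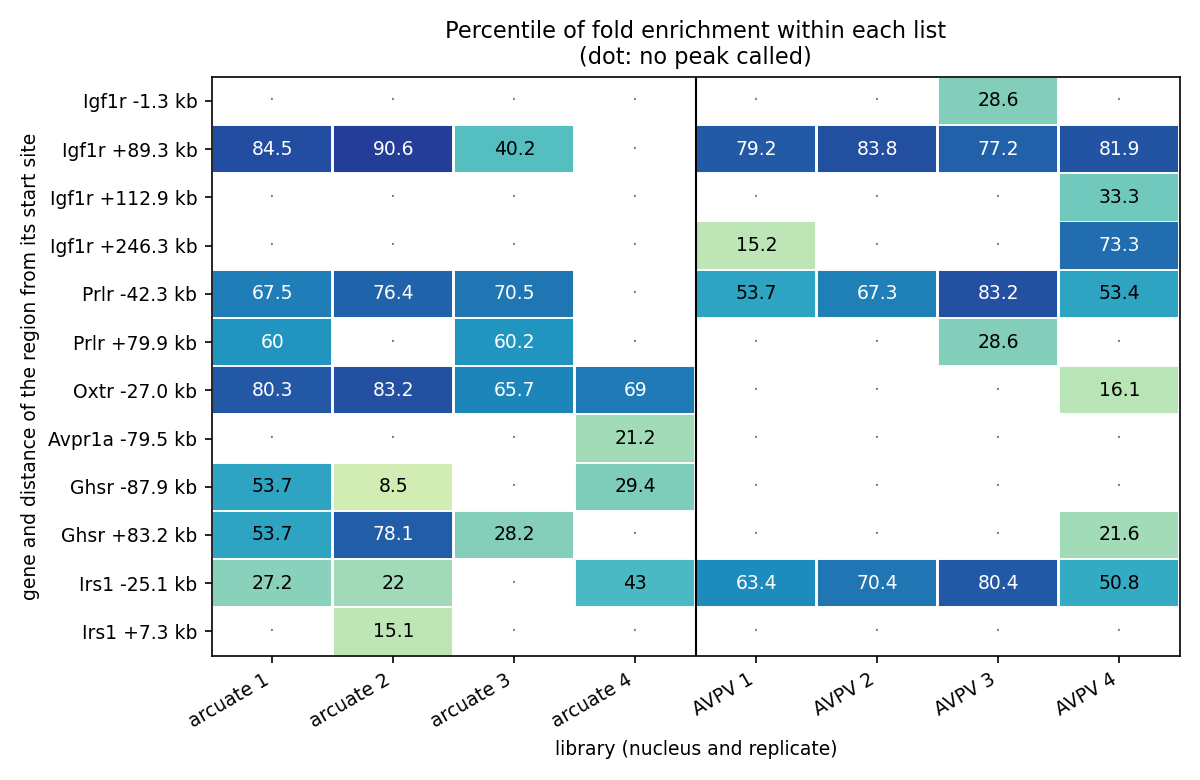
Percentile of fold enrichment of each peak within its own list (cell values, darker for stronger peaks) for the 12 regions (rows) and the 8 libraries (columns), with a dot where no peak was called. Igf1r 89.3 kb and Prlr 42.3 kb from their start sites had peaks in every library other than arcuate 4, and the Oxtr row was filled across the arcuate with a single weak peak in AVPV 4.

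Among the cytokine class receptors, Prlr, the prolactin receptor, was the one with binding in its window. Its main region, at chr15:10134648-10135109, was intergenic, 42.3 kb upstream of the nearest Prlr start site and closer to Prlr than to any other gene. Peaks were called in arcuate libraries 1 to 3, at percentiles of 67.5, 76.4 and 70.5 and fold enrichments of 7.70, 8.34 and 7.93. The AVPV libraries had percentiles of 53.7, 67.3, 83.2 and 53.4 and fold enrichments of 6.54, 7.80, 10.6 and 6.53. Arcuate library 4 had no peak, and the remaining libraries of the 2 nuclei overlapped. With a missing peak set to 0, the mean percentile was 53.6 ± 35.9 in the arcuate and 64.4 ± 14.1 in the AVPV (SD, n = 4), a difference of -10.8 (exact permutation p = 0.829, adjusted p = 1). Without arcuate library 4 the difference was 7.08 in the other direction (exact permutation p = 0.371), so no direction could be read from this region.

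A second region in the Prlr window, at chr15:10373446-10373736, lay 79.9 kb downstream of a Prlr start site but in intron 2 of Agxt2, a mitochondrial aminotransferase gene, whose start was 15 kb away. It was called in arcuate libraries 1 and 3, at percentiles of 60.0 and 60.2, and in AVPV library 3 at 28.6. It held a response element with 2 mismatches at chr15:10373611-10373625, printed here because it was 1 of 3 such matches among the 12 regions.
Prlr downstream element: TGGTTAAACTGACCT
Counted over the whole Prlr window, both nuclei averaged 1.25 peaks per library, with an SD of 0.957 in the arcuate and 0.5 in the AVPV.

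No library had a peak in the windows of Lepr, the leptin receptor, or Ghr, the growth hormone receptor. The nearest region to a Lepr start site was 177 kb upstream, in an intron of Dnajc6, and had peaks in 3 libraries of each nucleus at percentiles from 2.81 to 69.0. The nearest to Ghr was 160 kb upstream and rested on a single arcuate library at percentile 8.59. The nearest site called in either nucleus to Ghr was 495 kb away, in an intron of Oxct1, and had peaks in all 8 libraries at percentiles from 88.3 to 98.9. Of all genes, 69.7% had a region nearer than Lepr and 67.3% nearer than Ghr.

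Of the receptor kinases, Igf1r, the receptor for IGF1, had 4 regions and Insr, the insulin receptor, none. The main Igf1r region, at chr7:68041345-68041969 in intron 2, lay 89.3 kb downstream of the start site and held the strongest peak found at any of the 10 genes, at percentile 90.6 of arcuate library 2. Arcuate libraries 1 to 3 had percentiles of 84.5, 90.6 and 40.2 with fold enrichments of 10.7, 12.5 and 5.71, and library 4 had no peak. The AVPV libraries were close together at 79.2, 83.8, 77.2 and 81.9, with fold enrichments of 10.2, 11.0, 9.07 and 10.8. With a missing peak at 0 the means were 53.8 ± 42.3 and 80.5 ± 2.93 (SD, n = 4), and the difference of -26.7 was within the spread of the arcuate libraries (exact permutation p = 0.429, adjusted p = 1). Without arcuate library 4 it was -8.73 (exact permutation p = 0.829). The response element in capitals in the sequence above, at chr7:68041619-68041633, was centred 33 bp from the median summit and 19 to 106 bp from the summits of single libraries.

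The other 3 Igf1r regions had peaks in 1 or 2 AVPV libraries and in no arcuate library. The region nearest to the start site, 1.29 kb upstream at chr7:67950886-67951082, had a peak in AVPV library 3 at percentile 28.6 and was the richest in G and C of the 12, at 73.1%. A region 113 kb downstream in intron 2 had a peak in AVPV library 4 at 33.3. The region 246 kb downstream, at chr7:68198406-68198712 in intron 13, had peaks in AVPV libraries 1 and 4 at 15.2 and 73.3, and its nearest start site was that of Pgpep1l, 65.7 kb away. Without AVPV library 4 this was no longer a site, and 3 AVPV sites remained at the 10 genes. Summed over the Igf1r window there were 1, 1, 1 and 0 peaks in arcuate libraries 1 to 4 and 2, 1, 2 and 3 in the AVPV libraries. The mean was 0.75 ± 0.5 in the arcuate and 2 ± 0.816 in the AVPV (SD, n = 4), with overlapping libraries (exact permutation p = 0.114, adjusted p = 1). Without AVPV library 4 the difference of -1.25 peaks was -0.917. Scaled to peaks per 1000 of each list, every AVPV library was above every arcuate library, with a difference of -0.501 (exact permutation p = 0.0286, adjusted p = 0.305). The AVPV lists are mostly shorter, so this scaling raises most AVPV values against the arcuate ones at any gene with peaks. How many of all genes separated under it was not counted.

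The windows of Insr and of Igf1, which encodes the growth factor itself, held no peak in any library. The nearest region to Insr, 635 kb upstream, rested on a single arcuate library at percentile 29.4. The nearest site to Insr was 960 kb away at the promoter of Map2k7, with peaks in all 8 libraries at percentiles from 91.3 to 99.0. The nearest region to Igf1 was 467 kb downstream in an intron of Dram1, with 3 libraries of each nucleus at percentiles from 20.6 to 58.4. Of all genes, 91.7% had a region nearer than Insr and 87.8% nearer than Igf1. The median over the 10 genes was 81.3 kb and over all genes 79.1 kb.

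**Figure D3:**
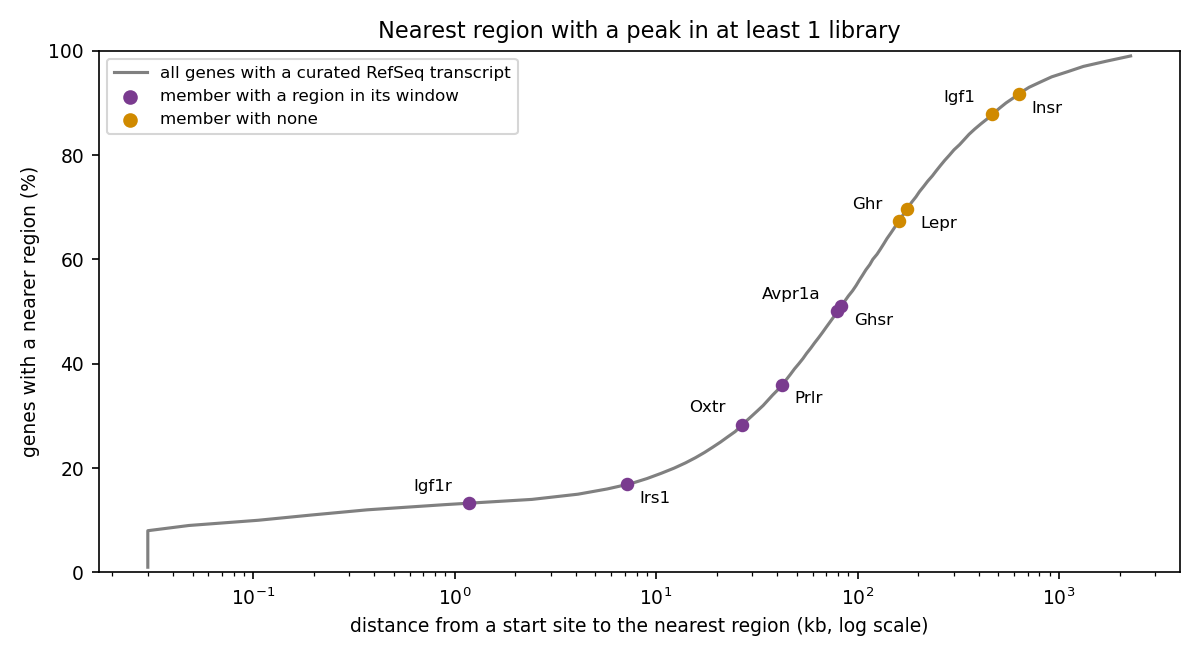
Distance from a start site to the edge of the nearest region (horizontal axis, kb, log scale) against the percentage of genes with a nearer region (vertical axis), with the line for all genes and points for the 10 genes. The points run from Igf1r at 1.18 kb to Insr at 634 kb, and the 4 genes with no region in their window lie above 160 kb. The line is drawn from 0.03 kb, where genes with a region at their start site are placed.

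Oxtr, the oxytocin receptor, was the only one of the 10 genes with a region called in all 4 libraries of a nucleus as a site of that nucleus alone. The region, at chr6:112516659-112517044, was intergenic and 27 kb upstream of the Oxtr start site, its nearest gene. Arcuate libraries 1 to 4 had percentiles of 80.3, 83.2, 65.7 and 69.0 and fold enrichments of 9.49, 9.68, 7.49 and 7.21. Of the AVPV libraries only the fourth had a peak, at percentile 16.1 and a fold enrichment of 4.54, so the nuclei did not overlap. The mean percentile with a missing peak at 0 was 74.5 ± 8.5 in the arcuate and 4.02 ± 8.03 in the AVPV (SD, n = 4). The difference of 70.5 gave an exact permutation p of 0.0286, the smallest that 4 against 4 libraries allow, and an adjusted p of 0.336 over all 8072 regions. Among all regions 5.72% did not overlap with the arcuate higher, and only a region with peaks in every arcuate library could do so. The share among such regions was not counted. After adjustment the test called no region. A call needed a large share of all 8072 regions to reach the smallest p together, so its absence says little. The count of libraries alone, 4 against 1, gave p = 0.143 in Fisher's exact test (adjusted p = 1). Without AVPV library 4 the difference was 74.5 and without arcuate library 4 it was 72.4. No response element lay within 100 bp of its summit.

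Ghsr, the receptor for ghrelin, had 2 sites in the arcuate and none in the AVPV, both more than 80 kb from its start site and both closer to another gene. The upstream region, at chr3:27283145-27283738, was 87.9 kb from Ghsr and 33.6 kb from the start of Tnfsf10, a ligand that induces cell death. It had percentiles of 53.7, 8.5 and 29.4 in arcuate libraries 1, 2 and 4 and no peak in arcuate library 3 or in the AVPV. The difference in mean percentile was 22.9 (exact permutation p = 0.143, adjusted p = 0.668), and it fell to 2.83 without arcuate library 1 and to 5.06 in lists of equal length. The downstream region, at chr3:27454403-27454806, was 83.2 kb from Ghsr in intron 22 of Fndc3b and had percentiles of 53.7, 78.1 and 28.2 in arcuate libraries 1 to 3. AVPV library 4 had a peak there at 21.6, and the difference of 34.6 gave an exact permutation p of 0.143 (adjusted p = 0.668). At the downstream region the difference was 47.9 without arcuate library 4 (exact permutation p = 0.0286, adjusted p = 0.256), 40.0 without AVPV library 4, 21.9 without arcuate library 2 (exact permutation p = 0.257) and 21.1 in lists of equal length (exact permutation p = 0.429). Peaks in the Ghsr window numbered 2, 2, 1 and 1 in the arcuate libraries and 0, 0, 0 and 1 in the AVPV libraries. The means were 1.5 ± 0.577 and 0.25 ± 0.5 (SD, n = 4), with an exact permutation p of 0.0857 and an adjusted p of 1. Without AVPV library 4 the difference of 1.25 peaks was 1.5 (exact permutation p = 0.0286, adjusted p = 0.722), and in lists of equal length it was 0.75 (exact permutation p = 0.429).

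Avpr1a, the V1a vasopressin receptor, had a single weak region at chr10:122368694-122368977, intergenic and 79.5 kb upstream. Its only peak was in arcuate library 4, at percentile 21.2 and a fold enrichment of 4.69. The nearest site to Avpr1a was 397 kb away, near Srgap1.

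Irs1, the adaptor that insulin and IGF1 receptors phosphorylate, had a region in 7 libraries at chr1:82316339-82316999, 25.1 kb upstream of its start site. This region was at the promoter of another gene, Rhbdd1, a rhomboid protease, with its median summit 7 bp from the Rhbdd1 start site. Arcuate libraries 1, 2 and 4 had percentiles of 27.2, 22.0 and 43.0 with fold enrichments of 5.03, 4.58 and 5.50, and library 3 had no peak. The AVPV libraries had percentiles of 63.4, 70.4, 80.4 and 50.8 with fold enrichments of 7.52, 8.17, 9.92 and 6.38. Every AVPV library was above every arcuate library, a pattern that 2.79% of all regions showed. Only a region with peaks in every AVPV library can show it, and the share among such regions was not counted. The mean with a missing peak at 0 was 23.1 ± 17.8 in the arcuate and 66.3 ± 12.4 in the AVPV (SD, n = 4), a difference of -43.2 (exact permutation p = 0.0286, adjusted p = 0.336). With the percentile of -log10 q in place of fold enrichment the difference was -30.0 and the exact permutation p was 0.0857, so the separation depended on the measure of strength. Without arcuate library 4 the difference was -49.8 and without AVPV library 4 it was -48.3. Without arcuate library 3, which had the missing peak, it was -35.5 (exact permutation p = 0.0571). This was the smallest difference with any library left out. A weaker region inside Irs1, in intron 1 at chr1:82284078-82284255 and 7.28 kb from the start site, had a peak in arcuate library 2 alone at percentile 15.1. Its response element, 3 bp from the summit, had 2 mismatches and is printed because it was the nearest to the start site of its gene of the 3 matches under regions.
Irs1 intron 1 element: AGGTGACCCTGACAT
No test over all genes separated the nuclei in peaks per window at any of the 10 genes. The lowest adjusted p over the 14739 genes tested was 0.898, and 469 genes had an unadjusted exact permutation p under 0.05. With a smallest p of 0.0286, a call needed a large share of these genes to reach it together.

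**Figure D4:**
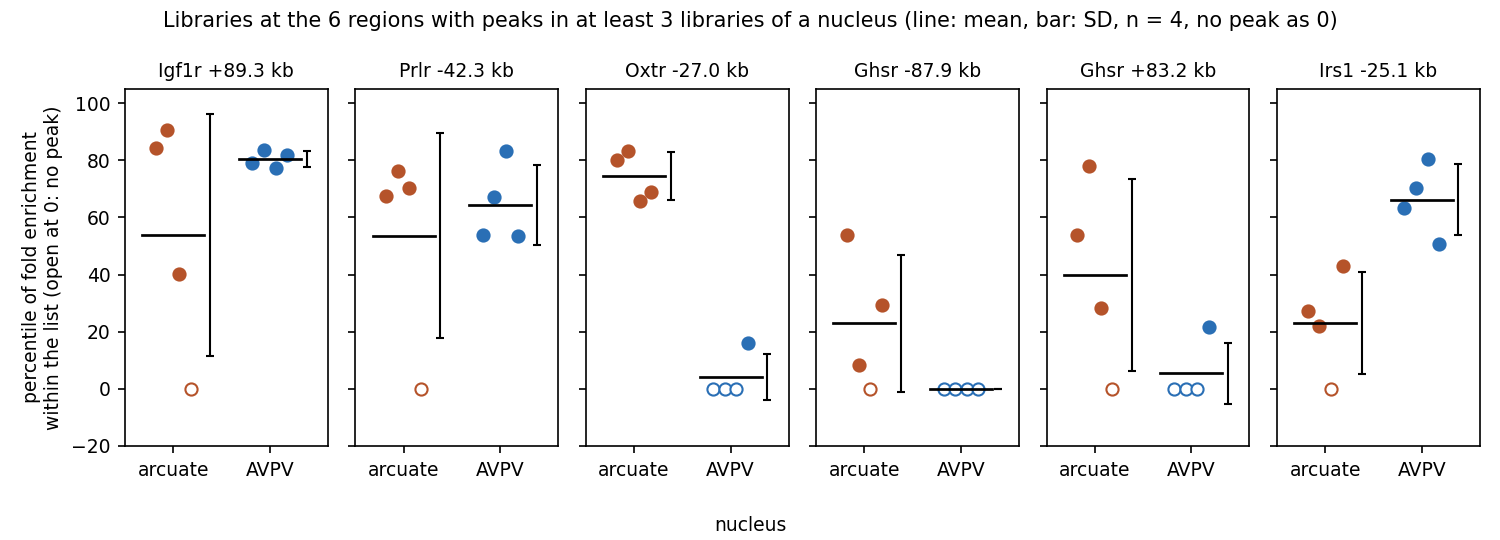
Percentile of fold enrichment (vertical axis) in the arcuate and AVPV libraries for the 6 regions with peaks in at least 3 libraries of a nucleus, with filled points for called peaks, open points at 0 for libraries with no peak, a line for the mean and a bar for the SD (n = 4). The libraries of the nuclei did not overlap at Oxtr, where the arcuate was higher, and at Irs1, where the AVPV was higher. No region passed after adjustment, which 4 against 4 libraries could hardly have allowed.

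The 42 peaks at the 10 genes were spread over the strength of their lists, with a median percentile of 60.1 and a range from 8.5 to 90.6. Of these, 1 was in the top 10% of its list, 12 were in the top 25% and 27 were above the middle. The 4 regions called in a single library, at Igf1r, Avpr1a and Irs1, were weak, from percentile 15.1 to 33.3. They made up 33.3% of the 12 regions, and 41.5% of all regions were called in a single library. The percentiles of such regions over all genes were not summarised, so the weakness is not a trait of these genes. The arcuate libraries held 7, 7, 5 and 4 of these peaks and the AVPV libraries 4, 3, 5 and 7. Per 1000 peaks of the same list the arcuate had 1.15 to 1.81 and the AVPV 1.18 to 2.29, and the ranges overlapped.

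By position, 6 of the 12 regions were intronic, 5 intergenic and 1 at a promoter, where 32.4%, 32.2% and 26.4% of all regions fell. The promoter region was that of Rhbdd1 and not of one of the 10 genes. One of the 10 genes was the nearest gene of 7 of the 12 regions: 3 of the 4 at Igf1r, the upstream one at Prlr, those at Oxtr and Avpr1a and the intronic one at Irs1. A response element was present in 3 of the 12 regions and in 28.7% of all regions, and in 2 of the 8 sites against 36.3% of all sites. All 3 had 2 mismatches. The G and C content of the 12 regions had a median of 46.5%, from 40.3% at the downstream Prlr region to 73.1%, against 52.2% over all regions. The hexamer CCGGAA was present in 1 of the 12 regions, with 2 copies at the Rhbdd1 promoter near Irs1. It was chosen after that sequence had been seen. Of all promoter regions 42.0% held it, against 7.17% of other regions, while 3.05% of promoter regions and 37.9% of other regions held a response element.

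Closer matches to the response element, with at most 1 mismatch, occurred in the genomic sequence of 4 of the 10 windows, with 3 at Igf1, 3 at Oxtr, 2 at Igf1r and 1 at Irs1. None of them lay under a region. How many such matches lay under a region over all genes was not counted, so this is not a trait of the 10 genes. In the promoter table of RefSeq (GRCm38.p6), 9 of the 10 genes matched, with 13 start sites, and none of these promoters (250 bases before to 50 after the start) held an element with at most 2 mismatches. Over all promoters in the table the share was 1.5%.

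Other genes of the same pathways were taken as 5 lists with 59 genes, of which 41 had a region in their window, 29 an arcuate site and 22 an AVPV site. Over all genes the shares were 56.3%, 36.7% and 31.9%, and no test of the lists against these shares was made. Each gene was counted by its own window, so the same region can count for more than 1 neighbouring gene of a list. None passed the test of peaks per window after adjustment (exact permutation test, Benjamini-Hochberg), and 2 had an unadjusted p under 0.05, as did 469 of the 14739 genes tested over the whole series. The JAK-STAT list, which carries the signals of leptin, growth hormone and prolactin, had a region at 10 of 11 genes, an arcuate site at 10 and an AVPV site at 8. The insulin and IGF1 signal list had a region at 12 of 16 genes, with arcuate sites at 5 and AVPV sites at 4. Receptors of other metabolic or pituitary hormones had a region at 9 of 12 genes, the ligands at 6 of 10 and the IGF carriers at 4 of 10.

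The regions named from these lists, chosen first by the number of libraries with a peak, were mostly at promoters of neighbouring genes. The share of promoters among all regions called as often was not counted. The JAK-STAT list had regions in all 8 libraries at Cish and Sh2b1, whose products respectively damp and promote cytokine receptor signals, 41.8 kb and 12.3 kb from their start sites but at the promoters of Hemk1 and Tufm. Socs1, another inhibitor of the pathway, had a region 48.5 kb downstream in an intron of Clec16a, with Socs1 as the nearest gene, a response element and peaks in all 8 libraries. Its arcuate percentiles ran from 52.7 to 83.5 and its AVPV percentiles from 33.2 to 76.2. In the insulin and IGF1 list the region in the window of Pdpk1, a kinase that activates Akt, was at the promoter of Kctd5 and among the strongest of every list, from percentile 99.2 up.

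Akt2, a kinase of the insulin signal, had a region with arcuate percentiles of 1.1 to 38.8 and AVPV percentiles of 55.3 to 78.2, at the promoter of Map3k10 and 67.5 kb from Akt2 (exact permutation p = 0.0286, adjusted p = 0.336). Insrr, a receptor related to Insr, had one at the promoter of Prcc with arcuate percentiles of 72.7 to 88.8 and AVPV percentiles of 92.3 to 97.1 (exact permutation p = 0.0286, adjusted p = 0.336). At Igfals, a carrier of IGF1 in blood, the region was at the promoter of Eme2, with arcuate percentiles of 35.4 to 74.0 and AVPV percentiles of 75.1 to 88.1, at the same p-values. At these 3 regions every AVPV library was above every arcuate library, which 2.79% of all regions showed. Only a region with peaks in every AVPV library can show this, and these 3 had peaks in all 8 libraries. The share among regions with peaks in all 8 libraries was not counted, so the 2.79% is no fair background for them. Other promoter regions of the lists overlapped, as at Pdpk1 and Gcgr, and no shared direction was tested. The ligand list had regions in all 8 libraries near Ghrl, encoding ghrelin, and Gh, encoding growth hormone, at the promoters of Sec13 and Ccdc47, and one near Avp, encoding vasopressin, in 3 libraries of each nucleus at the promoter of Itpa. Tshr and Gcgr, receptors of thyrotropin and glucagon, had theirs at the promoters of Cep128 and Ccdc137. Igfbp4, an IGF binding protein, was the one named carrier with arcuate peaks alone, in 3 libraries at 51.7 to 86.7, in an intron of Rara and 85.7 kb away (exact permutation p = 0.143, adjusted p = 0.668). Igfbp6 had a peak in 1 AVPV library, at the promoter of Spryd3.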

How the data were processed

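Lists of ERα ChIP-seq peaks from 4 arcuate and 4 AVPV libraries were used. The authors aligned 75-nt single-end reads to mm10 with Bowtie2 2.5.0 and called peaks in each library with MACS2 2.2.7.1 at a false discovery rate of 5%, and deepTools 3.5 is named in the submitters' processing notes. The deposited lists give for each peak a fold enrichment (a ratio over local background), its p-value and q-value as -log10, a summit offset and a score. The deposited score was 10 times the -log10 q cut to a whole number for 25981 of 25982 peaks and was not used. The lists hold no read counts, so depth and counting error per peak are unknown here, and 2 pooled input samples had no list.

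Peaks were merged when they shared at least 1 bp, and annotated with 45756 RefSeq transcripts of GRCm38.p6, the same build. Promoters reach 1 kb before and 100 bp past a start site. Percentiles are mid-ranks of fold enrichment within a list. Response elements were searched within 100 bp of the median summit. Nuclei were compared by two-sided exact permutation (35 divisions into 4 and 4) and by Fisher's exact test, with Benjamini-Hochberg adjustment over all regions or genes tested. A test of percentiles at regions with peaks in all 8 libraries had been planned and gave no value for these genes, so the test with a missing peak at 0 was added after the data were seen. A missing peak is below the threshold and not at 0, so this test enlarges differences that rest on missing peaks. The genes and lists were chosen with earlier results of these data known. Regions with peaks in at least 3 libraries of a nucleus were described in full, with the most often called region of each gene, and at most 3 genes were named per list, by the number of libraries and then the mean percentile. Of the genes so chosen, 1 is not reported here. Alternatives were the window, the libraries needed, stricter peaks, lists of equal length, other annotation and merging, leaving out each library and a replicate block. The tests were checked on simulated data. Python 3.11.15, numpy 2.4.6, scipy 1.17.1, pysam 0.24.0, samtools 1.23.1 and matplotlib 3.10.9 were used.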

Additional observations from a re-analysis of the deposited data

Results flagged for a closer look

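Of 16 groups of 4 libraries (12 of percentiles at the 6 regions described in full, 4 of peaks per library), 3 had a library whose percentile, with a missing peak at 0, was far from the others by Dixon's test, which flags about 1 in 20 groups by chance. A group with a single called peak always meets this test. At the Prlr region 42.3 kb upstream, arcuate library 4 was at 0 while the others were at 67.5 to 76.4. At the Oxtr region, AVPV library 4 was at 16.1 while the other AVPV libraries had no peak. At the Ghsr region 83.2 kb downstream, AVPV library 4 was at 21.6 and the other AVPV libraries had no peak. The 2 AVPV values were both single weak peaks of the same library.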

How the results depend on the processing

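The numbers of sites depended on the window and on the libraries required. Of the 12 regions, 7 were sites of the arcuate and 4 of the AVPV. With 1 library enough, arcuate sites numbered 9 at 6 genes and AVPV sites 9 at 5 genes, so the excess in the arcuate was gone. With all 4 required there was 1 arcuate site at 1 gene against 3 AVPV sites at 3 genes, so it was reversed. Within 50 kb there were 4 arcuate sites and 4 AVPV sites, so the excess was gone at that window too. Within 20 kb or in the gene body alone there was 1 arcuate site at 1 gene (Igf1r) and 2 AVPV sites at 1 gene. Sites with a response element numbered 2, and 1 where 3 or all 4 libraries were required, within 50 kb, within 20 kb or in the gene body alone, and 0 with at most 1 mismatch. They ranged from 1 to 2 with each library left out, with 1 without arcuate replicate 1 or arcuate replicate 3. With each library left out, arcuate sites ranged from 5 to 7 and AVPV sites from 3 to 4. The Prlr difference of -10.8 ran from -18.4 to 7.08 with each library left out and turned to 7.08 without arcuate replicate 4, where the missing peak lay. Of 160 adjusted p-values over these alternatives none was under 0.05, and the lowest was 0.256. With so few libraries an adjusted p under 0.05 could hardly arise. The Oxtr difference ran from 61.5 to 74.5 and the Irs1 difference from -55.5 to -30.0. The Ghsr differences ran from 2.83 to 30.5 upstream and from 21.1 to 47.9 downstream.

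Libraries of the same number did not deviate together (correlations from -0.213 to 0.0493 over 1089 regions), and no arcuate library correlated best with the AVPV library of its number. The replicate block was a sign-flip test whose smallest p is 0.125. The differences of 70.5 for Oxtr and -43.2 for Irs1 both had an exact sign-flip p of 0.125. Pairing leaves a difference of means as it is, and no adjusted p under 0.05 was possible, so this is no check on either. The lists give no depth, so a missing peak limits every statement on binding in a single nucleus.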
